A study of Homo sapiens with 6 samples.

Results

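Centromere and kinetochore proteins form the structure that joins each chromosome to the spindle. The 39 genes described here were chosen by name, with earlier results of these data known. They are 15 of the inner kinetochore, 13 of the outer kinetochore and 11 of other roles. The other roles are CENP-A loading, corona, chromosomal passenger complex, cohesion protection and bi-orientation. All 39 had a row in the deposited table of 60617 genes, and all 39 were among the 17223 genes tested. RNA came from the established cell line NCI-H1299, which derives from a human lung tumour and makes no p53, grown in RPMI1640 medium with fetal bovine serum. Of the 6 libraries, 3 had FuHsi knocked down and carry Sh1 in their titles, and 3 controls are labelled WT and carry Puro. The question behind the comparison, as the series title puts it, was what FuHsi does in the nucleolus. The labels spell out neither Puro nor Sh1, and give no shRNA sequence, promoter, clone or duration of knockdown. The table used here carries no gene named FuHsi, so the targeted transcript was not checked. Nothing in the labels says that replicates were separate cultures, so p-values measure only the spread between these libraries, which may be technical.

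In the living cell, nucleosomes that hold the histone variant CENP-A mark the centromere through the whole cell cycle. The constitutive centromere-associated network, the inner kinetochore, sits on them. In mitosis it recruits the outer kinetochore (the KNL1, MIS12 and NDC80 complexes, and the SKA complex), which grips microtubules. Many of these genes are transcribed mainly in late cell cycle stages, under the DREAM, MYBL2-MuvB and FOXM1 complexes, which act through a promoter element called the cell cycle genes homology region. In bulk RNA, fewer mitotic cells and less RNA per cell cannot be told apart.

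Library totals were 24231515 to 27900051 counts in knockdown and 30735547 to 34306849 in control, so the control libraries were deeper without exception. Of the 5 lung adenocarcinoma markers (NKX2-1, NAPSA, SFTPB, SFTPC and KRT7), the summed counts were only 126 to 140 in knockdown and 45 to 51 in control. SFTPC was at 0 in all 6 libraries, so little of these 5 markers was seen. NAPSA and KRT7, the 2 of them with enough counts to test, were both higher in knockdown. KRT8, an epithelial keratin, was at 320 ± 7.43 CPM (counts scaled to a common library size) in knockdown and 494 ± 6.43 CPM in control (mean ± SD, n = 3 each). Its partner KRT18 did not pass (log2 fold change -0.06, edgeR adjusted p = 0.104) and was called higher with library size alone. EPCAM, CDH1 and KRT19, the other epithelial markers, had at most 16 counts in a library and were not tested. Of 4 mesenchymal markers, VIM was lower (log2 fold change -0.70), FN1 (0.93) and ZEB1 (0.45) were higher, and CDH2 (-0.01) did not pass. CDH2 was called higher with library size alone. Summed counts of 10 markers of leukocytes, endothelium, fibroblasts and red cells were 93 to 170 in knockdown and 90 to 133 in control. Among these, PTPRC was called higher, at no more than 25 counts in a library, and 3 did not pass. The rest were not tested. All 7 proliferation markers were lower in knockdown, at a median log2 difference of -0.88, and the part of these marker differences in the members' results was not tested.

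Most centromere and kinetochore genes were lower after FuHsi knockdown. By edgeR's quasi-likelihood test, with p-values adjusted over all tested genes, 27 of 39 were lower and 4 were higher at an adjusted p under 0.05, and 8 did not pass. Of all tested genes, 30.9% were lower and 30.7% were higher. The median log2 fold change, knockdown over control, was -0.60 for the members and 0.03 for all tested genes. The members ran from -1.16 for BIRC5 to 1.82 for CENPW. Levels in CPM, after TMM scaling (trimmed mean of M values), lay lower in every knockdown library than in any control library for 28 members, and higher for 4, with an overlap for 7. Of all tested genes, 32.3% lay wholly below and 33.0% wholly above. Only BIRC5 was lower by at least 2-fold and only CENPW higher by at least 2-fold, against 3.12% and 9.16% of all tested genes. The members together took 0.198% ± 0.00886 of all counts in knockdown libraries and 0.265% ± 0.0025 in control libraries (mean ± SD, n = 3 each).

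**Figure D1:**
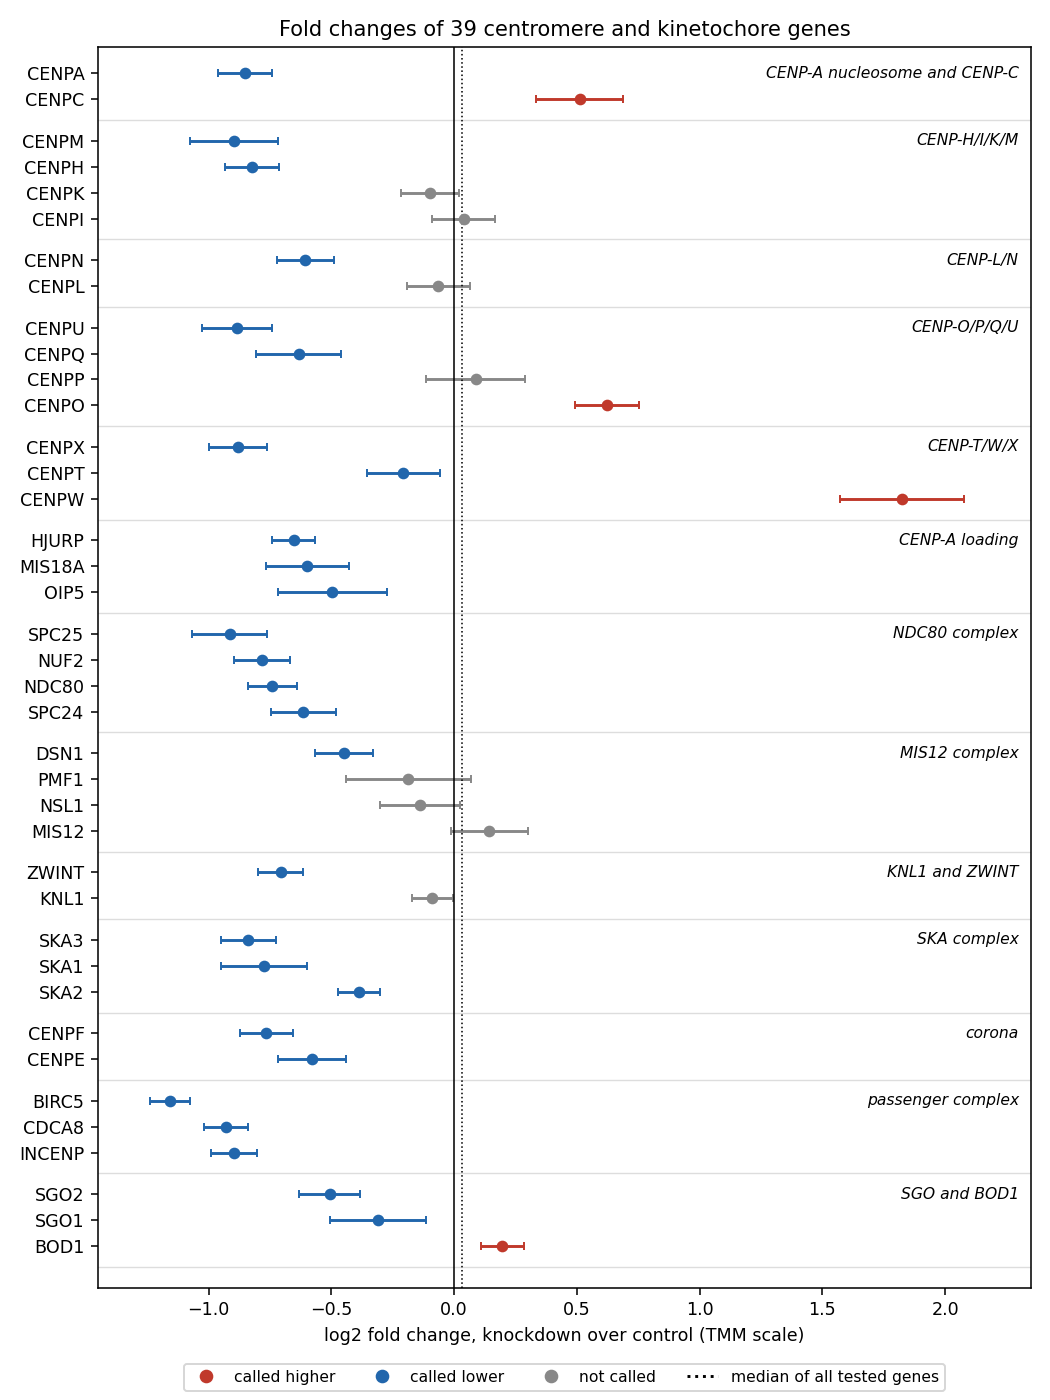
Log2 fold change, knockdown over control, of the 39 genes (x axis), grouped by role (y axis); points are estimates, bars unadjusted 95% confidence intervals, and the dotted line is the median of all tested genes (0.03). The NDC80, SKA and passenger complexes lie wholly to the left, while CENPW, CENPC, CENPO and BOD1 lie to the right.

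Most members were lower under every scaling tried. The median of the members was -0.61 with relative log expression (RLE) size factors, -0.54 with upper-quartile factors and -0.45 with library size alone. The median of all tested genes was 0.02 with RLE size factors, 0.09 with upper-quartile factors and 0.18 with library size alone. With library size alone, 25 members were lower and 7 higher, where 22.4% of all tested genes were lower and 40.6% higher. With upper-quartile factors, 26 members were lower and 5 higher, where 27.3% of all tested genes were lower and 34.3% higher. NSL1, CENPK, KNL1 and CENPL, which did not pass in the reported fit, had estimates of 0.01, 0.06, 0.06 and 0.09 with library size alone, against -0.14, -0.10, -0.09 and -0.06 with TMM. The 4 higher genes were higher under each of these scalings.

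**Figure D2:**
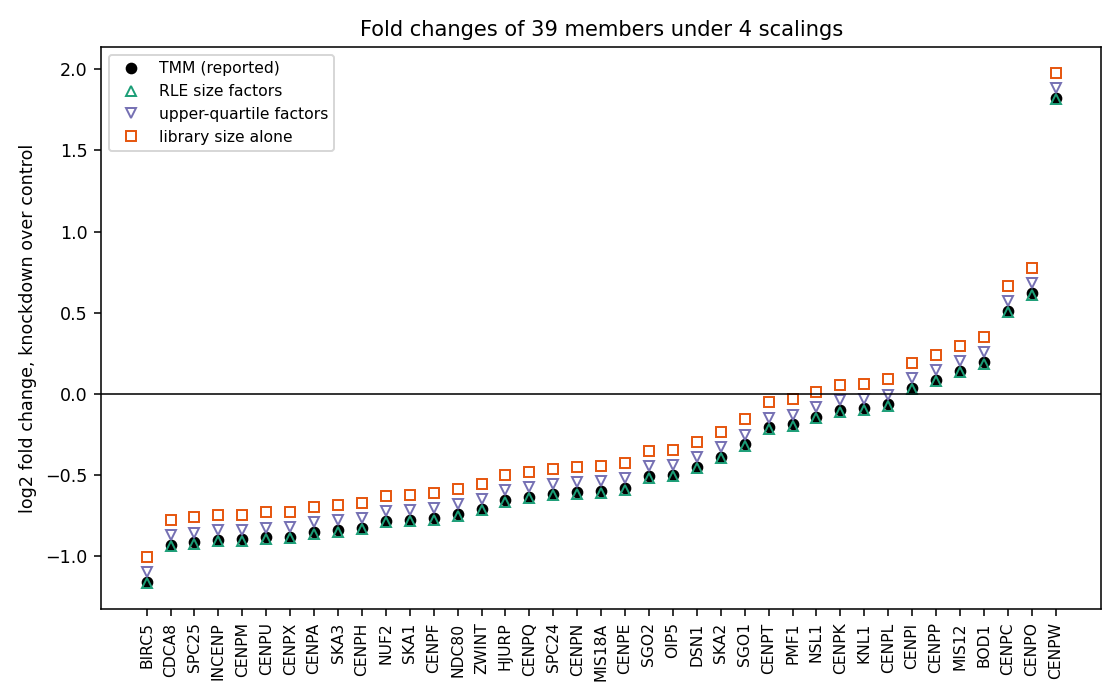
Log2 fold change, knockdown over control (y axis), of each member (x axis, ordered by the reported value) under 4 scalings of the libraries. Library size alone shifts every member upward by a similar amount, and the order of the members hardly moves.

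Promoters are shown for 4 genes that were lower and for 3 that were higher, to be read letter by letter for the elements named above. BOD1, which was also higher, is not shown. The windows are RefSeq's, on GRCh38.p14, from 250 bases before to 50 bases after the start, written 5′ to 3′ on the gene's strand. Where a gene had several windows, only the one with the lowest coordinate was used, so other starts were not searched. The same rule held for the coding genes compared below. Capitals mark each TTTGAA (the homology region) and each CCAAT (the CCAAT box, bound by NF-Y) on either strand, so TTCAAA and ATTGG are capitals too. All 4 lower genes printed carry TTTGAA within 50 bases of the start, and 12 other lower genes with a window do not. The printed genes therefore do not stand for all lower members. CDCA8 lies at chr1:37692266-37692565 on the plus strand, CENPA at chr2:26785806-26786105 (plus), INCENP at chr11:62123761-62124060 (plus) and SPC25 at chr2:168890381-168890680 (minus). CENPW lies at chr6:126339865-126340164 (plus), CENPC at chr4:67545454-67545753 (minus) and CENPO at chr2:24793175-24793474 (plus).
CDCA8: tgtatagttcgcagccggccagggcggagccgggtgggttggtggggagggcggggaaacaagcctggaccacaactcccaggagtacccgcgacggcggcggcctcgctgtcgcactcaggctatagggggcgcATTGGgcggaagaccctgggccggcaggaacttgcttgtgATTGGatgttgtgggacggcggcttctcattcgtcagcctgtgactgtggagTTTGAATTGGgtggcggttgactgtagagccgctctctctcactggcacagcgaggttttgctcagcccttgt
CENPA: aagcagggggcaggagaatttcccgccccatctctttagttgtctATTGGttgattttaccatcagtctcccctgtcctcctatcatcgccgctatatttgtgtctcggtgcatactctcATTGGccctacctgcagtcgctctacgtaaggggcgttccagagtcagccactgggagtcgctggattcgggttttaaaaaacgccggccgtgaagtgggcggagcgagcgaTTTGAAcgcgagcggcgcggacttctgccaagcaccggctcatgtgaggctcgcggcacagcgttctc
INCENP: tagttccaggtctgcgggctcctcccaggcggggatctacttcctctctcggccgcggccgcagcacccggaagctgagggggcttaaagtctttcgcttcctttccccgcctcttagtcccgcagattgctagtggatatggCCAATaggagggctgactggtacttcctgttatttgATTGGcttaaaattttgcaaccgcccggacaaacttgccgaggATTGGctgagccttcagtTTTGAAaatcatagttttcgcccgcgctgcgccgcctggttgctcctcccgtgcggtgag
SPC25: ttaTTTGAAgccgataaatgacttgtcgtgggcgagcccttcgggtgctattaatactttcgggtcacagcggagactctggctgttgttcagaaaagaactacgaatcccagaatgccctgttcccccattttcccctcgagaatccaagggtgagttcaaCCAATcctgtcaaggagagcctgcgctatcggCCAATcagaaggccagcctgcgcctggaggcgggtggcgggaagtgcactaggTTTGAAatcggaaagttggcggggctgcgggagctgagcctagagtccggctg
CENPW: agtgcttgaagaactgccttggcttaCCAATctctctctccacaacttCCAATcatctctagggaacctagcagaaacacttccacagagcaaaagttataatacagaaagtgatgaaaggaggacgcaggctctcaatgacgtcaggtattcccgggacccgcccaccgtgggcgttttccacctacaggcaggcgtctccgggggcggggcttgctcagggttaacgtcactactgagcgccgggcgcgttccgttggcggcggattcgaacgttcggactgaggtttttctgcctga
CENPC: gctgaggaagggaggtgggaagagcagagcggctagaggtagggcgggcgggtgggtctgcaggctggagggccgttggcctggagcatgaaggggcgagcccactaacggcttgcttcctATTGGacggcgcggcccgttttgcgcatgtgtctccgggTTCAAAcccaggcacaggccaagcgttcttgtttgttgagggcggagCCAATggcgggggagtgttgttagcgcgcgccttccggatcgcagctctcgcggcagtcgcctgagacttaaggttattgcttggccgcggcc
CENPO: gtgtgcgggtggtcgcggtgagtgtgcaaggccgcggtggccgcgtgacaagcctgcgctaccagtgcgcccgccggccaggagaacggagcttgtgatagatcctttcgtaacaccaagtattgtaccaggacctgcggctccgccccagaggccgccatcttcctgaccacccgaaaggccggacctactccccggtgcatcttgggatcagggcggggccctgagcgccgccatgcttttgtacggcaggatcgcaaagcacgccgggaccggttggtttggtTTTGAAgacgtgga

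TTTGAA, the spelling of the homology region searched here, was present in a larger share of these promoters than of coding promoters at large, mostly close to the start. RefSeq's table matched 33 of the 39 genes (BIRC5, CENPH, CENPL, CENPM, KNL1 and MIS18A had no entry). It was present on either strand in 14 of the 33 windows (42.4%), against 12.5% of 15843 windows of coding genes. Within 50 bases of the start it was present in 12 of the 33 (36.4%), against 3.5% of the coding windows. Those 12 genes were CDCA8, CENPA, CENPF, CENPN, CENPO, INCENP, NDC80, NUF2, SKA1, SKA3, SPC25 and ZWINT. Of the 12, 11 were lower and CENPO was higher, with a median log2 fold change of -0.78. Of the other 21 genes, 12 were lower, 3 were higher and 6 did not pass, with a median of -0.31. Members without a window are in neither count. Among them BIRC5 (-1.16), CENPM (-0.90), CENPH (-0.82) and MIS18A (-0.60) were lower, and CENPL and KNL1 did not pass. No share was computed over all tested genes with TTTGAA near the start, so whether these letters go with lower levels was not tested. In the printed windows the homology region begins at position -23 from the start in CDCA8, at -18 in CENPA, at -10 in INCENP and at -3 in SPC25 (with a further match at -247), while CENPO has it at 37 and CENPC at -90 on the other strand. CENPW has no TTTGAA in this window, which says only that these letters are not there. Other spellings of the homology region were not searched in any window.

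CCAAT was present in 21 of the 33 windows (63.6%), against 36.0% of coding windows, and within 50 bases of the start in 13 (39.4%), against 10.0%. Median log2 fold changes were -0.51 for these 13 and -0.60 for the other 20. In CDCA8 the homology region near the start overlaps a CCAAT match on the other strand. The E2F motif TTTCCCGC was present in CENPA and MIS12 (6.1% of windows, against 2.1% of coding windows), and TTTGGCGC in OIP5 (3.0%, against 0.9%). These matches were read on both strands, and each is a description of letters, not a bound site.

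For the counts by role from here on, 30.9% of all tested genes were lower and 30.7% were higher. Of all tested genes, 32.3% lay wholly below and 33.0% wholly above, so groups without overlap were common. The 2 genes at the foundation of the kinetochore moved in opposite directions. CENPA, the histone variant that marks the centromere, was at 42.9, 38.5 and 37.9 CPM in knockdown and 73.3, 69.0 and 73.2 CPM in control. CENPC, the scaffold that links CENP-A nucleosomes to the MIS12 complex, was at 21.7, 20.1 and 20.8 CPM in knockdown and 13.4, 15.3 and 15.3 CPM in control. Neither gene's groups overlapped. CENPA fell (log2 fold change -0.85 ± 0.06 (SE), edgeR adjusted p = 1.53e-20) and CENPC rose (0.51 ± 0.09, edgeR adjusted p = 1.02e-06). Their levels per length can be set side by side within a library: CENPC stood at 0.117, 0.121 and 0.126 of CENPA in knockdown and at 0.0422, 0.0509 and 0.0481 in control, 2.58-fold higher in knockdown. CENPC, ENSG00000145241, lies on the minus strand at chr4:67468748-67545606 in GENCODE v29 on GRCh38.

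Within the CENP-H/I/K/M group, which bridges CENP-C and the other inner kinetochore subunits, 2 genes fell and 2 did not pass. CENPM was at 12.04, 12.8 and 11.6 CPM in knockdown and 23.1, 21.4 and 23.3 CPM in control (log2 fold change -0.90 ± 0.09, edgeR adjusted p = 2.6e-13). CENPH was at 37.8 ± 0.817 CPM in knockdown and 67.0 ± 2.85 CPM in control (mean ± SD, n = 3 each), a log2 fold change of -0.82. Both genes lay lower in all 3 knockdown libraries. CENPI, their direct partner, was at 40.9, 36.6 and 41.0 CPM in knockdown and 40.9, 37.5 and 36.9 CPM in control (0.04 ± 0.06, edgeR adjusted p = 0.619). CENPK, which binds CENP-H, was at 44.2, 46.3 and 41.4 CPM in knockdown and 45.8, 45.6 and 49.9 CPM in control (-0.10 ± 0.06, edgeR adjusted p = 0.149). The groups overlapped for CENPI and CENPK. Per length, CENPI to CENPH was 1.82-fold higher in knockdown and CENPK to CENPH 1.65-fold higher, with no overlap for either ratio. CENPI was called higher with library size alone (0.19, adjusted p = 0.00871).

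The CENP-L/N pair reads the CENP-A nucleosome. CENPN, the subunit that touches CENP-A itself, was at 38.5, 38.7 and 35.9 CPM in knockdown and 55.4, 59.7 and 57.1 CPM in control (log2 fold change -0.61 ± 0.06, edgeR adjusted p = 4.76e-14). CENPL, its partner, was at 33.2, 34.4 and 33.6 CPM in knockdown and 35.1, 35.4 and 35.2 CPM in control (-0.06 ± 0.06, edgeR adjusted p = 0.399). CENPL lay lower in every knockdown library, yet did not pass. CENPN shares 22.8% of its exonic bases with CMC2, whose own log2 fold change was -0.63, and how the reads of that stretch were divided between CENPN and CMC2 was not tested.

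The CENP-O/P/Q/U group, which helps the kinase PLK1 dock at the kinetochore, held genes that fell, rose and did not pass. CENPU, the PLK1 docking subunit, was at 21.4, 21.4 and 23.0 CPM in knockdown and 42.2, 36.9 and 42.5 CPM in control (log2 fold change -0.88 ± 0.07, edgeR adjusted p = 8.24e-17). CENPQ, its binding partner, was at 15.7 ± 1.85 CPM in knockdown and 24.4 ± 1.27 CPM in control (mean ± SD, n = 3 each), a log2 fold change of -0.63. Both were lower in every knockdown library. CENPO was at 42.3, 43.6 and 44.1 CPM in knockdown and 30.0, 26.5 and 28.0 CPM in control (0.62 ± 0.07, edgeR adjusted p = 1.34e-12). CENPP, the partner of CENP-O, was at 13.5, 12.8 and 14.2 CPM in knockdown and 13.4, 13.1 and 11.6 CPM in control (0.09 ± 0.10, edgeR adjusted p = 0.463). CENPO was the one gene of the group whose knockdown libraries all lay higher, and CENPP's groups overlapped. CENPO to CENPU per length was 1.06, 1.09 and 1.03 in knockdown and 0.381, 0.385 and 0.352 in control. CENPO, ENSG00000138092, at chr2:24793136-24822376 on the plus strand, shares 31.4% of its exonic bases with ADCY3, whose own log2 fold change was -0.67. CENPP shares 42.7% with IPPK. The strand setting of the counts is not given in the sources used here, so the share of reads from these neighbours was not tested.

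CENPW, CENPT and CENPX, histone-fold proteins of the complex that carries NDC80 independently of CENP-C, had the widest range of fold changes of the role groups. CENPW was at 19.3, 16.7 and 16.9 CPM in knockdown and 5.75, 3.61 and 5.64 CPM in control, from 572, 424 and 431 counts in knockdown and 188, 117 and 163 counts in control. Each knockdown library lay far higher than each control library. The log2 fold change was 1.82 ± 0.13, with a 95% interval of 1.57 to 2.08, or 3.54-fold higher (edgeR adjusted p = 4.01e-18). CENPW, ENSG00000203760, lies on the plus strand at chr6:126340174-126348875 and shares none of its exonic bases with another gene. The control libraries varied more for CENPW, with a coefficient of variation of 24.2%, than for any other member.

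CENPX, which also works with the DNA repair helicase FANCM, was at 41.4, 38.6 and 35.3 CPM in knockdown and 67.0, 68.6 and 77.0 CPM in control (log2 fold change -0.88 ± 0.06, edgeR adjusted p = 3.63e-19). CENPT, the direct partner of CENP-W that recruits NDC80, was at 27.4, 25.9 and 23.8 CPM in knockdown and 27.8, 30.2 and 31.0 CPM in control (-0.21 ± 0.07, edgeR adjusted p = 0.0125). CENPX was lower by a clear margin, while the CENPT groups nearly touched. The CENPT call was lost with upper-quartile factors (-0.15, adjusted p = 0.0811), with library size alone (-0.05, adjusted p = 0.551), without knockdown replicate 3 (adjusted p = 0.072) and without control replicate 3 (adjusted p = 0.0609). CENPW to CENPT per length was 4.92, 4.50 and 4.95 in knockdown and 1.44, 0.832 and 1.27 in control, 4.16-fold higher in knockdown. CENPX to CENPT was 5.46, 5.41 and 5.37 in knockdown and 8.72, 8.22 and 8.98 in control.

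All 3 genes of the machinery that loads new CENP-A fell, as did 30.9% of all tested genes, with a median log2 fold change of -0.60. HJURP, the chaperone that deposits CENP-A, was at 91.9, 91.0 and 81.6 CPM in knockdown and 139.5, 140.4 and 136 CPM in control (-0.65 ± 0.04, edgeR adjusted p = 3.75e-20). OIP5 (Mis18β), part of the complex that licenses loading, was at 9.43, 9.15 and 8.14 CPM in knockdown and 12.02, 12.3 and 13.5 CPM in control (-0.50 ± 0.11, edgeR adjusted p = 8.99e-05). MIS18A, its partner, was at 17.2 ± 2.18 CPM in knockdown and 26.1 ± 0.944 CPM in control (mean ± SD, n = 3 each), a log2 fold change of -0.60. No library of one group reached into the other for these 3 genes. OIP5 shares 38.0% of its exonic bases with OIP5-AS1.

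**Figure D3:**
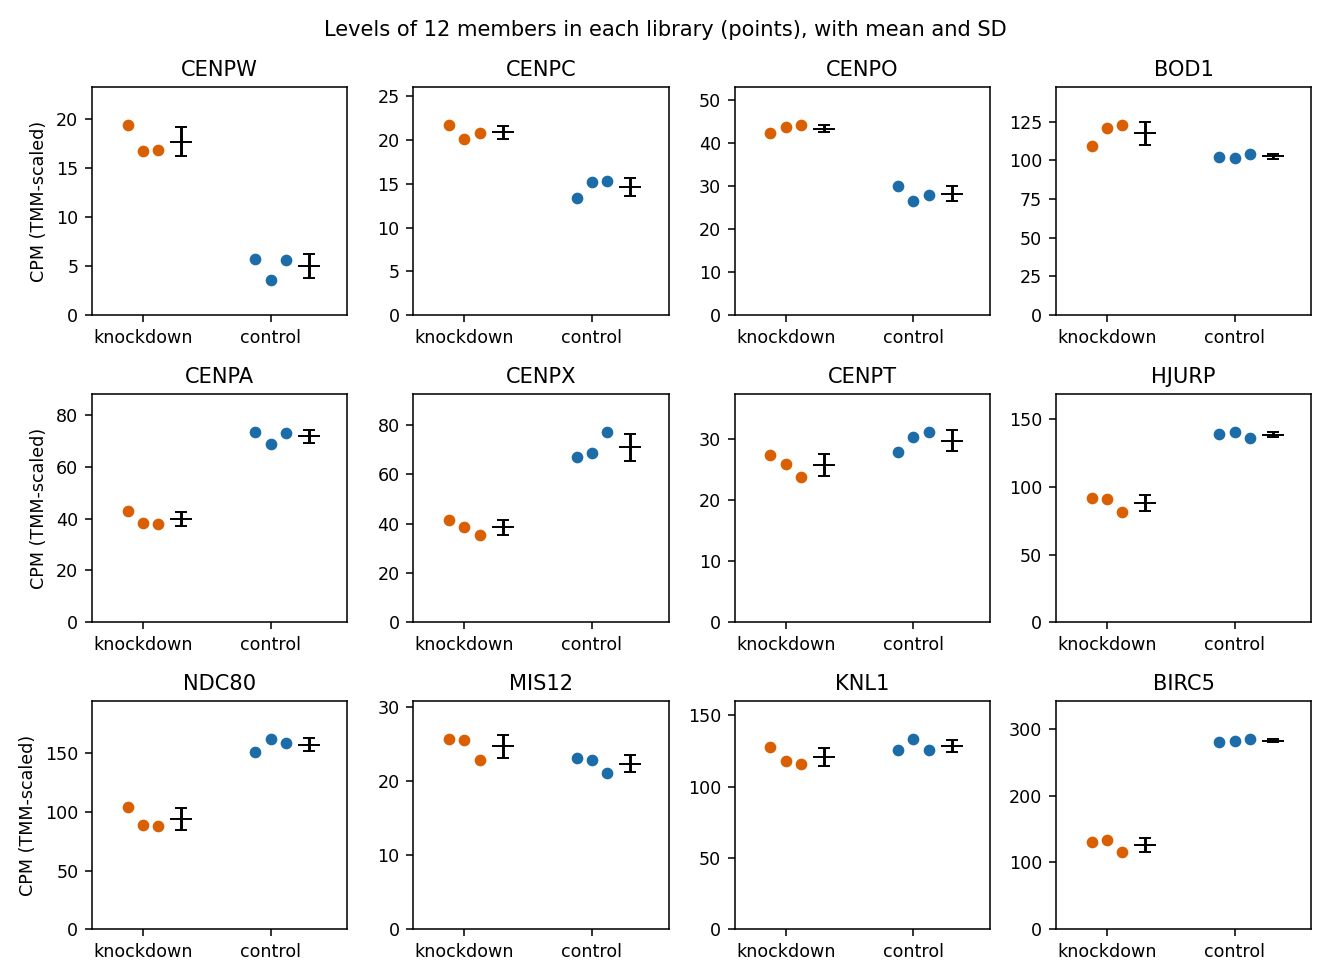
Levels of 12 members in each library (y axes, TMM-scaled CPM from 0; points are libraries, bars the mean and SD of 3), with knockdown left of control. CENPW, CENPC, CENPO and BOD1 sit higher in knockdown, while MIS12 and KNL1 overlap between groups.

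All 4 subunits of the NDC80 complex, the microtubule-binding rod, fell, with a median log2 fold change of -0.76. SPC25, which anchors the rod to the inner kinetochore, was at 21.8, 17.2 and 18.0 CPM in knockdown and 36.3, 36.6 and 34.9 CPM in control (-0.91 ± 0.08, edgeR adjusted p = 5.55e-16). SPC24, its partner, was at 29.1, 26.6 and 26.3 CPM in knockdown and 42.4, 40.1 and 43.3 CPM in control (-0.62 ± 0.07, edgeR adjusted p = 3.14e-12). SPC25 fell most and SPC24 least of the complex, and none of the 4 genes overlapped between groups. NDC80, which contacts the microtubule, was at 105, 88.9 and 88.4 CPM in knockdown and 151, 162 and 159 CPM in control (-0.74 ± 0.05). NUF2, the partner of NDC80, had a log2 fold change of -0.78 ± 0.06. NDC80 to NUF2 per length was 2.44, 2.31 and 2.33 in knockdown and 2.24, 2.32 and 2.33 in control, and these overlapped.

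The MIS12 complex, which ties the inner kinetochore to NDC80 and KNL1, held 1 gene that fell and 3 that did not pass. DSN1, the subunit through which Aurora B controls binding to CENP-C, was at 39.8, 39.2 and 36.0 CPM in knockdown and 49.95, 53.9 and 53.2 CPM in control (log2 fold change -0.45 ± 0.06, edgeR adjusted p = 1.6e-09). MIS12 was at 25.6, 25.6 and 22.9 CPM in knockdown and 23.1, 22.9 and 21.1 CPM in control (0.14 ± 0.08, edgeR adjusted p = 0.106). DSN1 lay lower throughout, and MIS12 overlapped. MIS12 to DSN1 per length was 0.558, 0.566 and 0.552 in knockdown and 0.402, 0.369 and 0.343 in control, 1.51-fold higher in knockdown. MIS12 was called higher in 4 settings: upper-quartile factors (0.20, adjusted p = 0.0218), library size alone (0.30, adjusted p = 0.00104), a minimum count of 50 (0.18, adjusted p = 0.0374) and without knockdown replicate 3 (0.19, adjusted p = 0.0476).

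NSL1 and PMF1, the remaining subunits, had the lowest levels of the complex per length in both groups. NSL1 was at 19.4, 20.5 and 19.9 CPM in knockdown and 22.9, 22.1 and 20.7 CPM in control (log2 fold change -0.14 ± 0.08, edgeR adjusted p = 0.13). PMF1 was at 6.90, 7.57 and 8.53 CPM in knockdown and 8.53, 8.04 and 9.59 CPM in control (-0.19 ± 0.13, edgeR adjusted p = 0.203). NSL1 lay lower in every knockdown library without passing, and PMF1 overlapped. PMF1 shares 23.3% of its exonic bases with the read-through gene PMF1-BGLAP, which had no counts in any library, so PMF1 is uncertain.

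KNL1 and its binding partner differed. KNL1, the scaffold for the BUB checkpoint proteins, was at 128, 118 and 116 CPM in knockdown and 126, 133 and 126 CPM in control (log2 fold change -0.09 ± 0.04, edgeR adjusted p = 0.0582). ZWINT, which binds KNL1 and recruits the corona, was at 78.7, 72.0 and 72.3 CPM in knockdown and 124, 125 and 115 CPM in control (-0.71 ± 0.05, edgeR adjusted p = 9.61e-21). ZWINT lay lower without overlap, and KNL1 overlapped in 1 library. ZWINT to KNL1 per length was 2.66, 2.63 and 2.69 in knockdown and 4.26, 4.04 and 3.93 in control. KNL1 stood at the edge of the threshold: it was called lower with RLE size factors, with no filter, by DESeq2, with libraries thinned to the smallest and without knockdown replicate 1 or control replicate 3, at adjusted p between 0.00703 and 0.049.

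All 3 SKA genes, whose complex keeps kinetochores on shrinking microtubule ends, fell. SKA3 was at 35.4, 34.7 and 34.6 CPM in knockdown and 62.5, 63.4 and 61.3 CPM in control (log2 fold change -0.84 ± 0.06, edgeR adjusted p = 4.98e-20). SKA2 was at 97.4, 101 and 93.5 CPM in knockdown and 126, 126 and 130.0 CPM in control (-0.39 ± 0.04, edgeR adjusted p = 3.76e-12). SKA1, which binds the microtubule, had a log2 fold change of -0.77 ± 0.09. The groups were separate for all 3, and SKA2 to SKA3 per length was 1.37-fold higher in knockdown.

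The corona genes fell too. CENPF, a large coiled-coil protein of the corona, was at 203, 177 and 178 CPM in knockdown and 315, 336 and 297 CPM in control (log2 fold change -0.76 ± 0.05, edgeR adjusted p = 4.83e-10). CENPE, the kinesin motor that carries chromosomes to the spindle equator, was at 83.6, 68.6 and 66.6 CPM in knockdown and 105, 112 and 110.3 CPM in control (-0.58 ± 0.07, edgeR adjusted p = 3.95e-07). In both, knockdown replicate 1 was the highest of its group and still lay lower than every control library.

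The passenger complex genes, which target the kinase Aurora B to centromeres, had the lowest median log2 fold change of the role groups, -0.93, and 3 of 3 fell. BIRC5 (survivin), the subunit that docks the complex to centromeric chromatin, was at 131, 134 and 115 CPM in knockdown and 281, 282 and 284 CPM in control. The log2 fold change was -1.16 ± 0.04, or 2.23-fold lower (edgeR adjusted p = 6.34e-30). BIRC5, ENSG00000089685, lies on the plus strand at chr17:78214186-78225636. INCENP, the scaffold, was at 76.4, 66.1 and 67.8 CPM in knockdown and 130.3, 132 and 130.4 CPM in control (-0.90 ± 0.05, edgeR adjusted p = 4.45e-25). CDCA8 (borealin) was at 87.2 ± 7.14 CPM in knockdown and 166 ± 4.60 CPM in control (mean ± SD, n = 3 each), a log2 fold change of -0.93. All 3 genes were lower in every knockdown library. In the promoters printed above, INCENP and CDCA8 both carry the letters TTTGAA close to the start, and BIRC5 had no window. A part of these letters in the fall was not tested.

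The cohesion and bi-orientation genes split. SGO2, a shugoshin best known for protecting cohesion in meiosis, was at 47.6, 42.4 and 39.6 CPM in knockdown and 56.1, 64.8 and 63.7 CPM in control (log2 fold change -0.51 ± 0.06, edgeR adjusted p = 5.35e-10). SGO1, the shugoshin that protects cohesion in mitosis, was at 12.8, 15.2 and 13.5 CPM in knockdown and 15.0, 17.4 and 19.1 CPM in control (-0.31 ± 0.10, edgeR adjusted p = 0.00491). SGO1's groups overlapped, and its call was lost with library size alone (adjusted p = 0.165) and without control replicate 3 (adjusted p = 0.0665). BOD1, which restrains the phosphatase PP2A-B56 at kinetochores, was at 109, 121 and 123 CPM in knockdown and 102, 101 and 104 CPM in control (0.20 ± 0.04, edgeR adjusted p = 8.48e-05). BOD1 lay higher in every knockdown library, by a small margin. BOD1, ENSG00000145919, lies on the minus strand at chr5:173607514-173616660.

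Set side by side, the inner kinetochore was more mixed than the outer. Of 15 inner genes, 3 rose, 8 fell and 4 did not pass, with a median log2 fold change of -0.21. Of 13 outer genes, none rose, 9 fell and 4 did not pass, with a median of -0.62. The inner median minus the outer median was 0.41, and by knockdown library against the control mean it was 0.41, 0.46 and 0.35 (SD 0.055). This difference is a description of 2 lists. With library size alone, 5 inner genes were higher and 7 lower (median -0.05), and 1 outer gene was higher and 9 lower (median -0.46). Under that scaling, 40.6% of all tested genes were higher and 22.4% lower (median 0.18). The inner minus outer difference was 0.31 with means in place of medians and 0.21 without CENPW. Without the 5 members that share over 20% of their exonic bases it was 0.24.

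Summed per length, the inner genes came to 160.6 ± 6.16 CPM per kilobase in knockdown and 215.7 ± 8.23 in control, and the outer genes to 176.6 ± 8.22 in knockdown and 264.0 ± 3.18 in control (mean ± SD, n = 3 each). The inner to outer ratio within each library, which no scaling can move, was 0.902, 0.907 and 0.919 in knockdown and 0.817, 0.778 and 0.857 in control, with no overlap. Without CENPW it was 0.771, 0.786 and 0.794 in knockdown and 0.789, 0.761 and 0.830 in control, and the groups overlapped. The ratio of summed levels was thus separate between groups only with CENPW included.

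**Figure D4:**
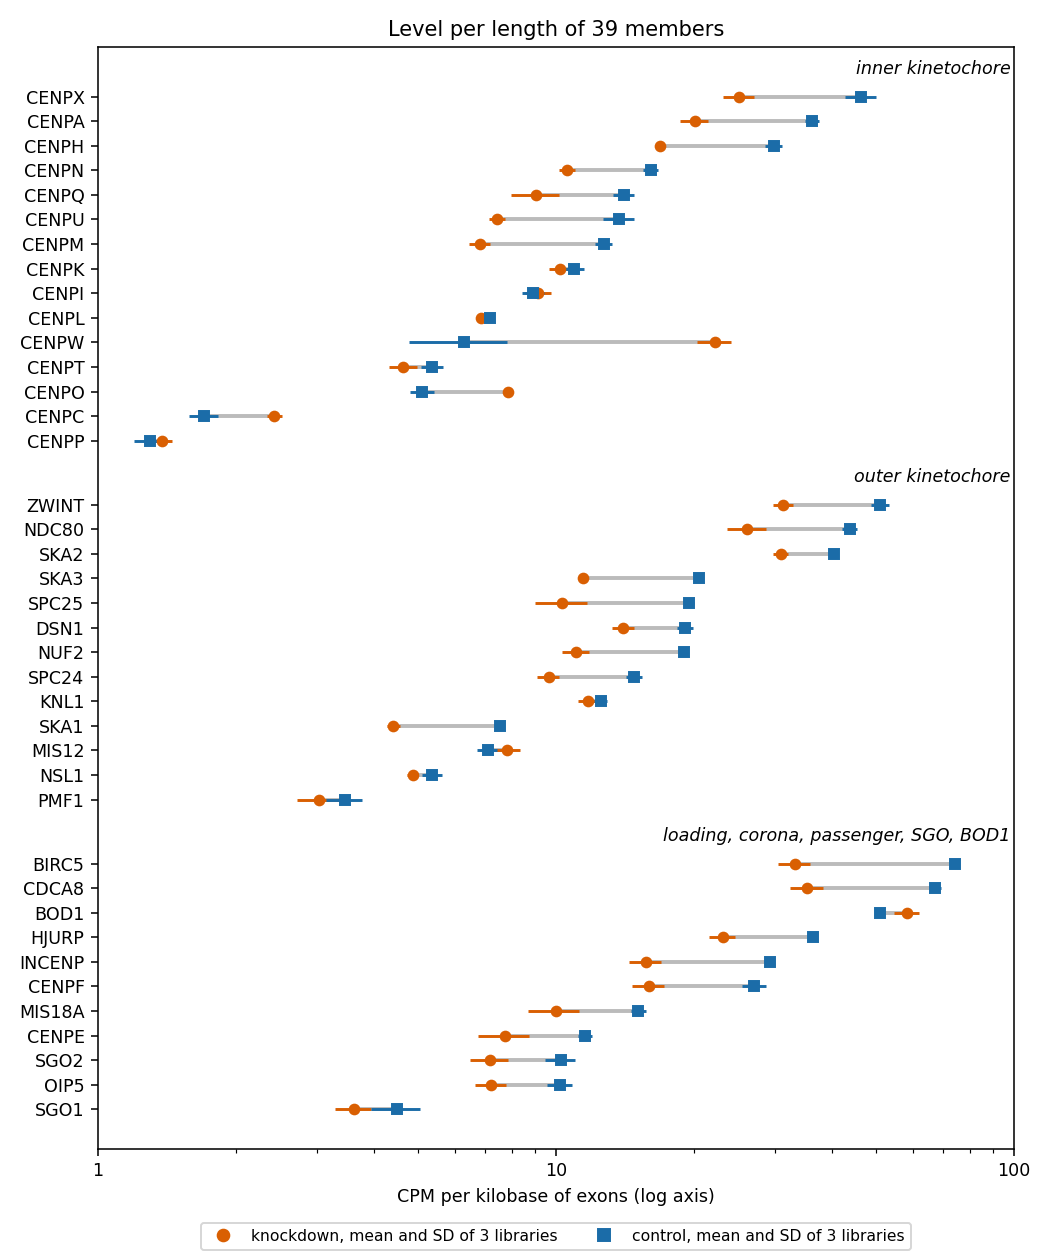
Mean level of each member in CPM per kilobase of exons (x axis, logarithmic; bars are SD of 3 libraries) in knockdown (circles) and control (squares). CENPW is among the strongest inner genes in knockdown and among the faint ones in control, and most other genes are lower in knockdown.

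Per length, the order of the members also moved. BIRC5 stood at rank 3 in knockdown, at 33.2 ± 2.67 CPM per kilobase, and at rank 1 in control, at 74.1 ± 0.441 (mean ± SD, n = 3 each). BOD1 stood at rank 1 in knockdown, at 58.3 ± 3.7 CPM per kilobase, and at rank 4 in control, at 50.8 ± 0.681. CENPW stood at rank 9 of 39 in knockdown, at 22.2 ± 1.85 CPM per kilobase, and at rank 32 of 39 in control, at 6.29 ± 1.52.

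In all, 22 ratios between partners were computed per length within libraries, on pairs chosen after the values were seen. Of these, 18 had groups that did not overlap, 11 higher and 7 lower in knockdown. Ratios between other genes were not computed, so this count has no share to be set against. Among single tested genes, 32.3% lay wholly below and 33.0% wholly above. With 3 libraries against 3, the exact two-sided permutation test cannot go below p = 0.1, however far apart the groups lie. The test therefore could not pass for any pair, and the pairs were chosen from the same values. No conclusion is drawn from that test, and the ratios are a description only. The 4 that overlapped were NDC80 to NUF2, NSL1 to PMF1, SKA1 to SKA3 and SGO1 to SGO2.

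**Figure D5:**
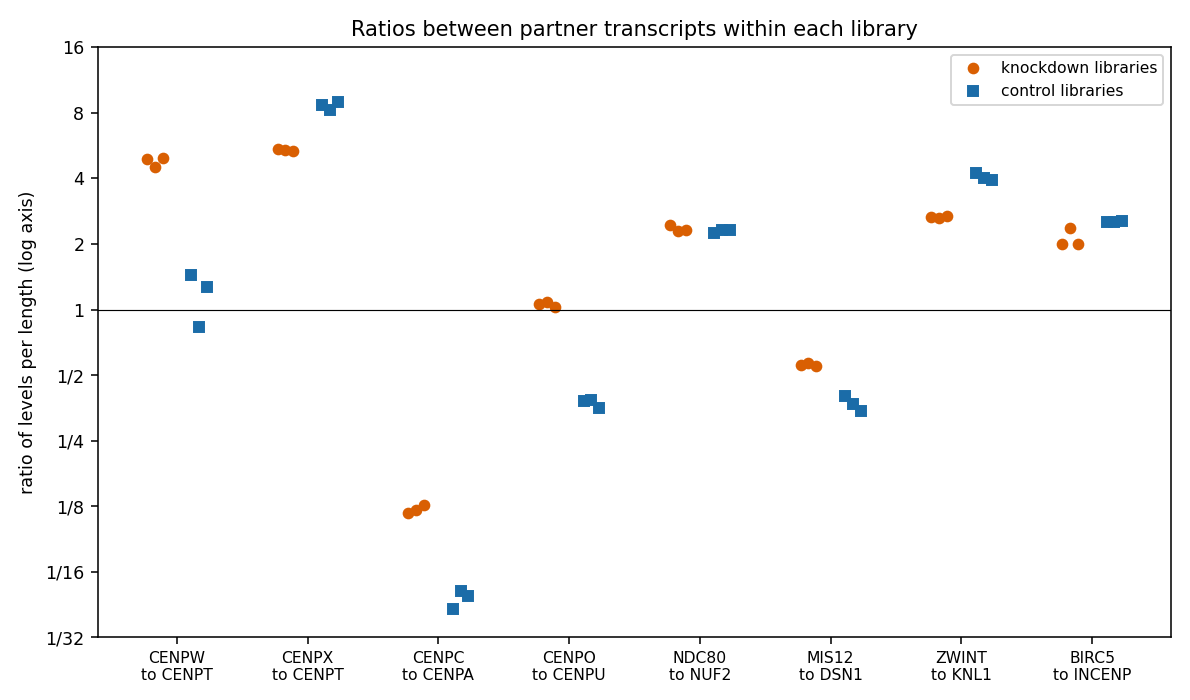
Ratio of levels per length between 8 pairs of partners (x axis) in each library (y axis, logarithmic), with knockdown libraries as circles left of control libraries as squares. NDC80 to NUF2 overlaps, and the other 7 pairs do not.

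Within the knockdown group, replicate 1 was the highest for 23 of 39 members and replicate 3 the lowest for 21. Over all tested genes, knockdown replicate 1 was the highest of its group for 33.4% and knockdown replicate 3 the lowest for 34.1%. Among control libraries, replicates 1, 2 and 3 were the highest for 7, 15 and 17 members and the lowest for 16, 13 and 10. The median coefficient of variation over the members was 6.35% in knockdown and 4.26% in control.

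Partners outside the 39 gave the surroundings. For the counts below, 30.9% of all tested genes were lower and 30.7% were higher. RBBP4 is counted in 2 lists, the centromere network and the G2/M regulators. Of 9 further genes of the centromere network and its loading, 5 fell and 4 did not pass, with a median of -0.16 on the log2 scale. NPM1, a nucleolar histone chaperone found with CENP-A, was lowest at -0.84, and ITGB3BP (CENP-R), CENPS, CENPB and SUGT1 did not pass. CENPS had only 24 to 53 counts in a library and shares 64.8% of its exonic bases with CENPS-CORT, so CENPS is uncertain. Of 14 checkpoint and Aurora partners, 11 fell and 3 did not pass, with a median of -0.40. AURKB, the kinase of the passenger complex, had a log2 fold change of -0.80, and PLK1 had -1.29. MAD1L1 (0.38), KNTC1 and PPP2R5A did not pass. MAD2L1, the spindle checkpoint effector, stood at 15.3 ± 1.25 CPM in knockdown and 86.3 ± 0.395 CPM in control (mean ± SD, n = 3 each), a log2 fold change of -2.49. Of 14 microtubule factors, 8 fell and 2 rose (median -0.44), from KIF4A at -2.25 to CLASP1 at 0.37. Of 14 regulators of G2/M transcription, 10 fell and 2 rose (median -0.47), from TFDP1, the dimer partner of E2F factors, at -1.22 to LIN37, a MuvB subunit, at 0.78. LIN37 shares 54.0% of its exonic bases with another gene. LIN9 and RBL2 did not pass. These counts moved with the scaling, as did those of all tested genes (22.4% lower and 40.6% higher with library size alone). With library size alone, 9 checkpoint and Aurora partners were lower and 2 were higher (ZW10 and ZWILCH lost their call, and MAD1L1 and KNTC1 were called higher). Microtubule factors then numbered 8 lower and 5 higher, with NDEL1, CLASP2 and CLIP1 called higher, and CLIP1 was also called higher with upper-quartile factors. The further centromere genes then numbered 4 lower and 1 higher, and the regulators 9 lower and 2 higher.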

How the data were processed

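RNA of 3 FuHsi knockdown and 3 control libraries of NCI-H1299 cells was compared. The authors deposited whole-number read counts per Ensembl gene, not normalized. The submitters' processing notes name DESeq2 1.30.1, featureCounts 2.0.1, STAR 2.7.0d, Trim Galore 0.6.6 and the build hg38. How they were set, which annotation was counted, and how strand and multiply aligned reads were treated is not given in the sources used here. Genes that overlap are therefore uncertain. In the table, 12 pseudogene copies of members held at most 4 counts in a library. Of 60617 genes, 34312 had a count.

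Genes were kept by filterByExpr of edgeR 4.0.16 at a minimum count of 10, scaled by TMM and tested with edgeR's quasi-likelihood test (robust) in R 4.3.3, with p-values adjusted by Benjamini-Hochberg over the 17223 genes tested. SEs derive from the test statistic. The common biological coefficient of variation was 4.67%. CPM per kilobase uses GENCODE v29 exonic lengths. The scripts were tested on simulated data. Alternatives included limma-voom (limma 3.58.1) and DESeq2 1.42.0.

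The members and lists were chosen with earlier results of these data known. Library values are given for the lowest and highest member of each role, and for every member that rose or did not pass. The library values of NDC80, the naming of AURKB and PLK1 and the pairs of the ratios were chosen after values were seen. No label says that a replicate number marks a shared culture or day, so the libraries were not paired. After subtracting group means, the knockdown and control libraries of each number had correlations of -0.000751, -0.00642 and -0.0235. These values show no common deviation, and cannot show how the libraries were prepared.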

Additional observations from a re-analysis of the deposited data

How the results depend on the processing

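Of the 39 members, 33 kept their call in all 15 alternative settings, and CENPI, CENPP, CENPT, MIS12, KNL1 and SGO1 changed theirs. CENPP was called higher with library size alone (0.24, adjusted p = 0.0347). Members higher numbered 7 with library size alone and 4 to 5 with each library left out in turn. Members lower numbered 26 to 28 with each library left out. Over all genes, 4962 to 5017 were higher and 5050 to 5198 were lower with each library left out, against 5905 higher and 4695 lower with upper-quartile factors and 6986 higher and 3855 lower with library size alone. The inner minus outer difference of medians was 0.36 to 0.45 with each library left out, and 0.31 with means. Chosen after seeing the data, leaving out CENPW gave 0.21 and leaving out the members sharing over 20% of exonic bases gave 0.24. The replicate block, on numbers that no label says pair the libraries, gave 4 members higher and 27 lower. Among all genes it gave 5214 higher and 5263 lower. Control libraries were deeper than knockdown libraries, and precision for faint members such as PMF1 and OIP5 is limited by their counts.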
